A study of Mus musculus with 8 samples.

Results

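The genes described here are 5 pairs of metabolic enzymes and carriers in which mice have a somatic form and a form made in the germ cells of the testis. They are Pgk1 and Pgk2, Ldha and Ldhc, Pdha1 and Pdha2, Gapdh and Gapdhs, and Cycs and Cyct. Members were taken by name from the table of the series, which gave 10 genes of the 54532 listed, and each somatic gene was set against its testis paralog in all 8 libraries.

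In germ cells the chromosomes X and Y are silenced during the pachytene stage of meiosis, so an X-linked housekeeping gene cannot be transcribed when the cell still needs its product. Several such genes have an autosomal copy that came from a spliced transcript and is used in spermatocytes and spermatids, and Pgk2 and Pdha2 are the textbook cases. The other pairs have both genes on autosomes, and their testis forms supply the glycolysis and respiration of spermatocytes, spermatids and sperm.

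RNA was sequenced from spermatocytes of C57BL/6J mice at postnatal day (PD) 24 and PD 52, separated by size through a BSA gradient into P (pachytene) and L/Z (leptotene and zygotene) spermatocytes. MFN2 cKO mice were Mfn2 loxp/loxp with Stra8-Cre, a transgene active in male germ cells from the early spermatogonia on, so somatic cells of the testis were not its target. MFN2 WT mice were littermates labelled Mfn2 loxp/loxp without Cre, although the methods also allow animals with 1 floxed allele, so every animal carried a floxed allele. Each of the 8 groups had 1 library, the sources used here do not say how many animals gave it, and no difference within a single pair of libraries could be tested. The tests took matched pairs of libraries as replicates.

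The libraries held between 14340665 and 20379950 reads on genes, and levels are in FPKM, a read count per length of the gene and per library size. Mfn2, the targeted gene, was lower in the MFN2 cKO library of every pair, at 41.8% to 80.5% of the MFN2 WT library. The labels were checked against marker lists, and the list of leptotene and zygotene genes did not set L/Z apart. Of its 18 genes, 7 were higher in P and 7 higher in L/Z in all 4 matched pairs, and their sum was higher in P in every pair (414 to 597 FPKM in P and 302 to 493 FPKM in L/Z). The sum of 14 pachytene genes was likewise higher in P in all 4 pairs (1275 to 1616 FPKM in P and 892 to 1199.9 FPKM in L/Z). Taken singly, 8 of the 14 were higher in P and 4 higher in L/Z in all 4 pairs. Genes of spermatids, the cells that follow meiosis, went the other way, as 18 of 20 were higher in the L/Z library of every pair, with a sum of 355 to 6221 FPKM in P and 915 to 23589 FPKM in L/Z. All 12 Sertoli cell genes were higher in P in every pair (318 to 908 FPKM summed, against 27.6 to 294 FPKM in L/Z). All 9 Leydig cell genes were higher in MFN2 cKO in every pair, with sums of 28.9 to 269 FPKM in MFN2 WT and 104 to 674 FPKM in MFN2 cKO. Of 9 macrophage genes 7 were higher in MFN2 cKO and 8 higher in L/Z in every pair, and 10 of 12 spermatogonia genes were higher in MFN2 cKO in both stages at PD 24. At PD 52, 6 of these 12 genes were lower in MFN2 cKO in both stages and 2 were higher. Of the 18 leptotene and zygotene genes, 15 were lower in MFN2 cKO in both stages at PD 52 and 1 was higher. P and L/Z are used below as the names of the libraries.

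The member genes differ in structure and place on GRCm38. Pgk1 (ENSMUSG00000062070, chrX:106187100-106203699, forward strand) and Pdha1 (ENSMUSG00000031299, chrX:160122209-160138413, reverse strand) have 11 exons each in the longest coding transcript. Their copies Pgk2 (ENSMUSG00000031233, chr17:40207015-40208640, reverse strand) and Pdha2 (ENSMUSG00000047674, chr3:141210004-141212355, reverse strand) have 1 exon each. Ldha (ENSMUSG00000063229, chr7:46841475-46855627) and Ldhc (ENSMUSG00000030851, chr7:46861203-46878142) lie next to each other on the forward strand of chromosome 7. Gapdhs (ENSMUSG00000061099) is at chr7:30729775-30743681 and Gapdh (ENSMUSG00000057666) at chr6:125161715-125166467, both on the reverse strand. Cycs (ENSMUSG00000063694, chr6:50562563-50566538) and Cyct (ENSMUSG00000056436, chr2:76353942-76360450) are on the reverse strand too.

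Within each pair the coding sequences were different enough for reads to be told apart. Identity over the aligned coding bases was 79.3% for Pgk1 and Pgk2, 73.2% for Ldha and Ldhc, 75.6% for Pdha1 and Pdha2, 70.3% for Gapdh and Gapdhs and 76.2% for Cycs and Cyct, and the longest identical run was between 14 and 22 bases. No window of 50 bases was shared between paralogs. The first 90 coding bases of the pairs that align from the start codon without a gap are shown for the glycolytic kinase and for cytochrome c, with capitals where the paralogs differ, at 23 of 90 and 15 of 90 positions (GENCODE mouse release 21 transcripts).
Pgk1: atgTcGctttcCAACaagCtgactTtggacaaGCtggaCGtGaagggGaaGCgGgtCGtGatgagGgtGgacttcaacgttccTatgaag
Pgk2: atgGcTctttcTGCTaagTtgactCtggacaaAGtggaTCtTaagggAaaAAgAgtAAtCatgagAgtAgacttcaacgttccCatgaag
Cycs: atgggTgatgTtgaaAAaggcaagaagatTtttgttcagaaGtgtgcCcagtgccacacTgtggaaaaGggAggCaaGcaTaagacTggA
Cyct: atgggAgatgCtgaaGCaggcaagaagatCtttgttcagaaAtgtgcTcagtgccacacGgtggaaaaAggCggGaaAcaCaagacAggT

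The somatic genes are harder to count for another reason, which is their copies elsewhere in the genome. Every coding window of 150 bases, the length of a read, was shared with another annotated gene for Pgk1 and Cycs, and 93.5% of such windows were shared for Gapdh. For Ldha, Pdha1 and all 5 testis genes the share was 0%. The main sharer of Pgk1 was the processed pseudogene Pgk1-rs7 (at most 0.0898 FPKM). That of Gapdh was the processed pseudogene Gm7336 (0.271 to 1.14 FPKM, beside 0.381 to 2.09 FPKM for Gapdh). That of Cycs was Gm10053, listed as protein-coding (0.774 to 4.99 FPKM, or 17.5% to 38.4% of the level of Cycs). How reads that match several genes were treated is not given in the sources used here, so the levels of Pgk1, Gapdh and Cycs, and the 3 ratios that rest on them, are uncertain. Pdha1 also overlaps Map3k15 on the opposite strand (0.344 to 2.68 FPKM) and Gapdhs overlaps the antisense gene Tmem147os (2.35 to 7.68 FPKM). The library kit does not mark strand, so reads of the overlapping parts cannot be told apart.

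By the listed levels, the testis form was the higher one of its pair in every library. The 95% counting intervals of the paralogs did not overlap in any library. These intervals cover counting error only, and for Pgk1, Gapdh and Cycs they leave out the uncertainty from shared windows. The lactate dehydrogenases, which interconvert pyruvate and lactate, were the most abundant pair. Ldhc stood at 2056, 1647, 2910 and 2141 FPKM in P (MFN2 WT PD 24, MFN2 cKO PD 24, MFN2 WT PD 52 and MFN2 cKO PD 52, an order kept below) and at 1494, 1622, 2122 and 2439 FPKM in L/Z. Its rank among 22046 protein-coding genes was between 2 and 4. Ldha, the form of most tissues that make lactate, was at 381, 312, 432 and 340 FPKM in P and at 242, 276, 322 and 351 FPKM in L/Z. Ldha had the highest listed value of the somatic members in every library, ranking between 54 and 122, and Ldhc exceeded it 5.28-fold to 6.95-fold.

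The kinase pair was further apart. Pgk2, which carries out the first ATP-yielding step of glycolysis in germ cells, was at 168, 135, 277 and 243 FPKM in P and at 253, 240, 448 and 651 FPKM in L/Z. Pgk1 was at 7.05, 10.2, 6.56 and 4.97 FPKM in P and at 7.36, 12.9, 4.41 and 5.85 FPKM in L/Z. Pgk2 was therefore high in the L/Z libraries of PD 52 and low in those of P at PD 24, while Pgk1 was highest in both MFN2 cKO libraries of PD 24. The excess of Pgk2 ran from 13.2-fold to 111-fold.

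Pdha1 and Pdha2 encode the catalytic alpha subunit of pyruvate dehydrogenase, which feeds pyruvate into the mitochondrial citric acid cycle. Pdha2 was at 83.1, 69.5, 96.4 and 74.6 FPKM in P and at 42.3, 43.9, 59.3 and 62.3 FPKM in L/Z, so that all 4 P libraries were above all 4 L/Z libraries. Pdha1 was at 1.71, 2.04, 0.734 and 0.775 FPKM in P and at 2.81, 4.62, 1.07 and 1.47 FPKM in L/Z. Its lowest levels were in P at PD 52, on 42 and 44 reads, and the excess of Pdha2 ran from 9.51-fold to 131-fold.

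The dehydrogenase pair of the preceding glycolytic step varied most. Gapdhs, which is bound to the fibrous sheath of the sperm tail, was at 86.7, 17.4, 232 and 167 FPKM in P and at 182, 60.9, 602 and 738 FPKM in L/Z, a 42.3-fold range. It was lowest in both MFN2 cKO libraries of PD 24 together with the P MFN2 WT library of that age. Gapdh, the reference gene of the RT-qPCR in the study, was listed at 1.64, 2.09, 1.09 and 0.767 FPKM in P and at 0.858, 0.818, 0.469 and 0.381 FPKM in L/Z, on 23 to 161 reads. With 94.2% of its coding windows of 50 bases shared with other genes, this low value cannot be read as a low level of the transcript.

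Cytochrome c carries electrons between the third and the fourth complexes of the respiratory chain. Cyct, its testis form, was at 109, 103, 168 and 100.6 FPKM in P and at 45.2, 69.5, 61.2 and 66.0 FPKM in L/Z, with all P libraries above all L/Z libraries. Cycs was at 10.3, 13.0, 14.6 and 5.53 FPKM in P and at 7.46, 11.6, 4.44 and 4.30 FPKM in L/Z. The excess of Cyct over Cycs ran from 6.01-fold to 18.2-fold.

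**Figure D1:**
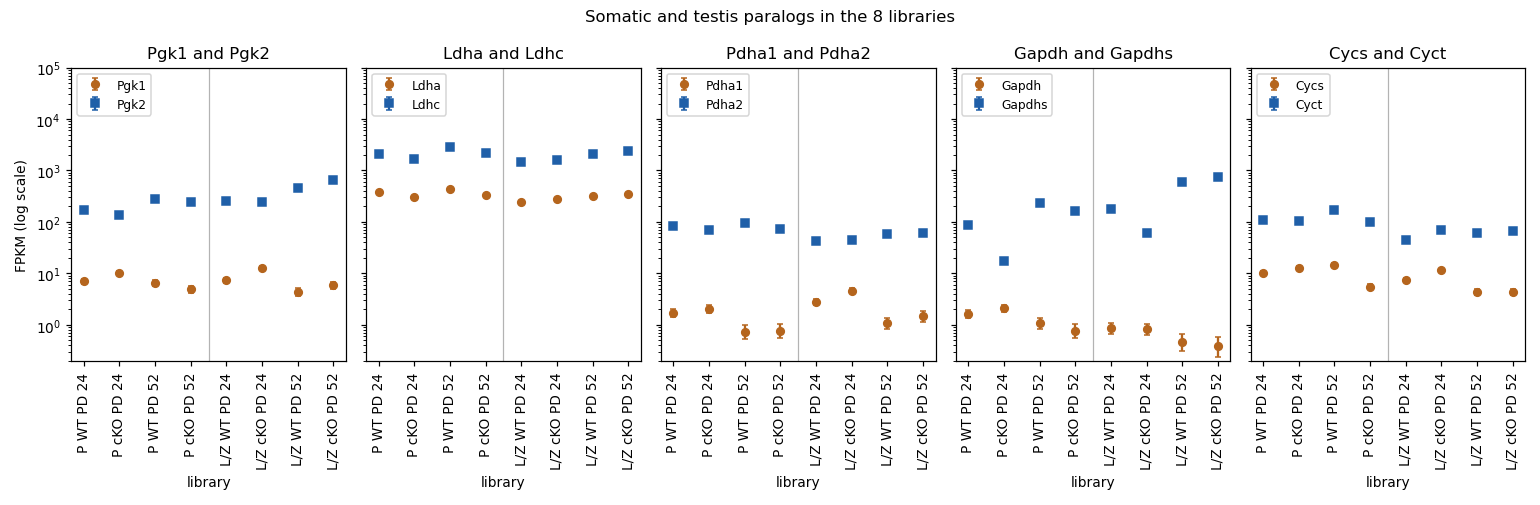
FPKM on a log axis for each pair in the 8 libraries, with the somatic gene as circles and the testis gene as squares, and bars for the 95% counting interval (often smaller than the point). The testis gene lies above the somatic gene in every library, and Gapdhs moves most, from 17.4 to 738 FPKM.

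All 10 members were found in the RefSeq promoter table (GRCm38.p6), and the 120 bases before the start of transcription are shown for the copies Pgk2 and Pdha2, for the most abundant member, Ldhc, and for the most variable, Gapdhs. Motifs were searched on both strands, and any found in the stretch are in capitals. They were the CCAAT box, the TATA box written as TATAAA, the GC box written as GGGCGG, and the cyclic AMP response element, written in full as TGACGTCA and as its shorter core TGACG, which lies inside the full form.
Pgk2, chr17:40208610-40208729, reverse strand: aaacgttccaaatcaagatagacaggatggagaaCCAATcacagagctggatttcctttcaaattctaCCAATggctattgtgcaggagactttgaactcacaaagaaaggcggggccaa
Pdha2, chr3:141212356-141212475, reverse strand: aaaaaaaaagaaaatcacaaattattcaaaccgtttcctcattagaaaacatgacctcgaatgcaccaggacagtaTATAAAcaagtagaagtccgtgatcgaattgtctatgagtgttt
Ldhc, chr7:46861143-46861262, forward strand: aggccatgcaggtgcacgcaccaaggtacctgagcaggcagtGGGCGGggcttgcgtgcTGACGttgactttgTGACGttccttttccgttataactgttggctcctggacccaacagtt
Gapdhs, chr7:30743682-30743801, reverse strand: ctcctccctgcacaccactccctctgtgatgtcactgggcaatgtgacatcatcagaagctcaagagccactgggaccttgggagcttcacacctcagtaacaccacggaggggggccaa

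Over 250 bases before the start, CCAAT was present in 33.8% of 32851 promoters, TATAAA in 12.4%, GGGCGG in 32.7%, TGACG in 17.8% and TGACGTCA in 1.55%. The full element was present at Ldha and Cycs and at no other member. The testis members were poorer in CpG than their partners, with 3 in Pgk2 against 17 in Pgk1, 8 in Ldhc against 25 in Ldha, 4 in Pdha2 against 15 in Pdha1, 1 in Gapdhs against 8 in Gapdh and 6 in Cyct against 23 in Cycs. The median of all promoters was 6.

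The first comparison asked whether the members differed between MFN2 cKO and MFN2 WT. Few members were 2-fold or more apart in a pair on the log2(FPKM + 1) scale, and none was higher in MFN2 cKO by that much. In P at PD 24 this was Gapdhs alone, lower in MFN2 cKO with a log2 difference of -2.25 (95% counting interval -2.38 to -2.12), among 10 members, where 8.08% of all genes tested were 2-fold apart. At PD 52 in P it was Cycs alone, with -1.26 (-1.43 to -1.09), among 9 members that passed the FPKM filter, beside 11.0% of all genes. In L/Z at PD 24 it was Gapdhs again, with -1.57 (-1.64 to -1.49), beside 10.5% of all genes, and in L/Z at PD 52 no member was 2-fold apart, beside 7.95% of all genes. Gapdh passed the filter in P only, which leaves 9 members in each L/Z comparison, and Pdha1 did not pass it in P at PD 52. With 1 library a group these differences have no replicate check.

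Of the smaller differences, those of 4 members had opposite directions in P and L/Z, and those of the other 6 did not. In P, Ldha, Ldhc, Pgk2, Pdha2, Gapdhs and Cyct were lower in MFN2 cKO at both ages, with log2 differences for Ldhc of -0.32 at PD 24 and -0.44 at PD 52. In L/Z, Ldha, Ldhc, Pdha2 and Cyct were higher in MFN2 cKO at both ages, with Ldhc at 0.12 and 0.20, although Pdha2 turned to -0.0047 at PD 24 with a further scaling and to -0.028 at PD 52 with scaling to total reads, and Cyct in P at PD 24 turned to 0.09 with the latter. The counting intervals of Cyct in P at PD 24 and L/Z at PD 52, and of Pdha2 at both ages in L/Z, spanned 0. The median over the 10 members was -0.17 and -0.36 in P and 0.15 and 0.16 in L/Z (PD 24, then PD 52), beside medians over all genes of -0.10, -0.05, 0.08 and 0.02. Pgk1 had differences of 0.48 in P and 0.74 in L/Z at PD 24, and of -0.34 in P and 0.34 in L/Z at PD 52, while Pdha1 had values above 0 in all 4 pairs. When the level of Gm10053 was added to that of Cycs, the difference at PD 52 was -1.34 in P. In L/Z at PD 52 it was 0.039, against -0.036 for Cycs alone. At PD 24 it was 0.40 in P and 0.62 in L/Z.

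**Figure D2:**
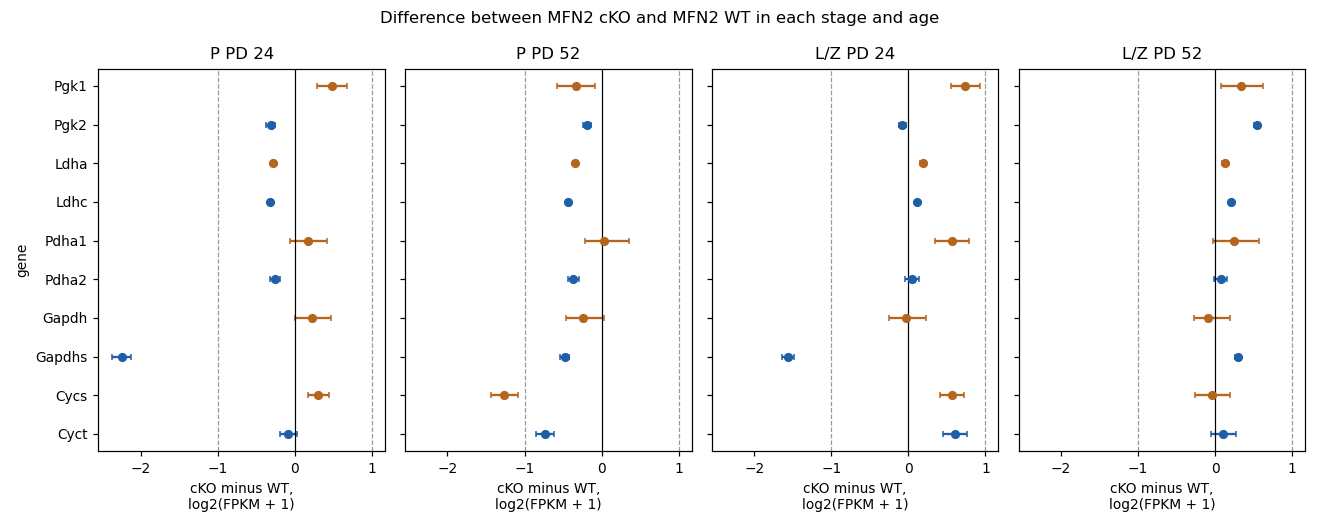
Difference in log2(FPKM + 1) between MFN2 cKO and MFN2 WT for the 10 members in each stage and age (somatic genes brown, testis genes blue), with 95% counting intervals and dashed lines at 2-fold. Gapdhs lies at -2.25 and -1.57 at PD 24 and Cycs at -1.26 in P at PD 52, beyond the lines, and the other points lie between them.

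Over the 4 pairs, limma called no member between MFN2 cKO and MFN2 WT at an adjusted p under 0.05, where it called 0.137% of the 21175 genes tested. One member had an unadjusted p under 0.05, which was Gapdhs with a mean log2 difference of -1.0 ± 0.40 (SE, n = 4 pairs, limma adjusted p = 0.70), lower in 3 of 4 pairs. With each pair left out, the Gapdhs difference ran from -1.43 to -0.58. Its unadjusted limma p was 0.054 with a further scaling, 0.073 with no FPKM filter and 0.36 with no block. limma-voom on the reads also called 0 members (0.538% of all genes) and had 1 at an unadjusted p under 0.05 (6.80% of all genes). At the unadjusted level limma had 6.93% of all genes. With the PD 24 libraries only, limma called 1 member of 10, Gapdhs, beside 9.51% of all genes. That fit took the P and L/Z pairs of PD 24 as replicates. The sources used here do not say whether P and L/Z cells came from different animals, so the pairs may not be independent. Of the 2 members with an unadjusted p under 0.05 for a change by genotype that differed between ages, Gapdhs had 1.82 ± 0.42 (limma adjusted p = 0.18) and Cycs -1.09 ± 0.44 (limma adjusted p = 0.40), and 12.5% of all genes were at that unadjusted level. limma called 0 members there and 0.0142% of all genes, while limma-voom called 1 member and 2.95% of all genes. For a change by genotype that differed between P and L/Z, limma and limma-voom both called 0 members, limma called 0% of all genes, and 1 member, Ldhc, had an unadjusted p under 0.05 beside 4.14% of all genes. In simulated data, the stage fit recovered 0 of 182 genes with a true log2 change of 1, and the age fit 0 of 186. The 0 calls of limma therefore say little about changes of that size.

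The markers of spermatids moved with Gapdhs. Their summed level was 1802, 355, 6221 and 3179 FPKM in P and 3507, 915, 13688 and 23589 FPKM in L/Z, and 19 of 20 were lower in MFN2 cKO in both stages at PD 24. Gapdhs amounted to 3.13 to 6.66 FPKM for each 100 FPKM of that sum. Their part in the difference was not tested, and in such samples fewer cells of a type and less RNA per cell cannot be told apart.

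**Figure D3:**
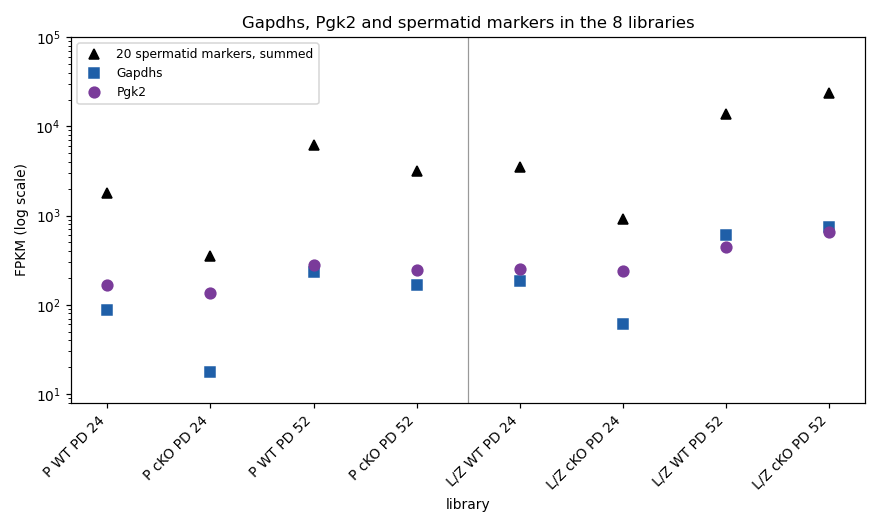
FPKM on a log axis in the 8 libraries for the sum of 20 spermatid markers (triangles), Gapdhs (squares) and Pgk2 (circles), 1 library per group. The sum runs from 355 to 23589 FPKM and is lowest and highest in the same libraries as Gapdhs.

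The second comparison set P against L/Z, matched on genotype and age. Pgk2 and Gapdhs were lower in P, as was the somatic Pdha1, while Pdha2, Cyct and Gapdh were higher in P. limma called these 6 members of 10, beside 28.4% of all genes. The mean log2 difference was -1.58 ± 0.21 for Gapdhs (SE, n = 4 pairs, limma adjusted p = 0.0038), -0.88 ± 0.19 for Pgk2 (limma adjusted p = 0.015) and -0.53 ± 0.16 for Pdha1 (limma adjusted p = 0.047). It was 0.96 ± 0.20 for Cyct (limma adjusted p = 0.014), 0.64 ± 0.17 for Pdha2 (limma adjusted p = 0.030) and 0.53 ± 0.16 for Gapdh (limma adjusted p = 0.044). Gapdh passed the FPKM filter only through P libraries, as its levels in L/Z were all below 1 FPKM. Its call therefore rests on the group that let it into the test, and no conclusion is drawn from it. Ldha had 0.30 ± 0.18, Ldhc 0.19 ± 0.19, Cycs 0.60 ± 0.24 and Pgk1 -0.021 ± 0.17, none of them called.

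These calls depended on single pairs of libraries and on the fit. Without the MFN2 WT PD 24 pair limma called 2 members (11.4% of all genes), without the MFN2 cKO PD 24 pair 3 (22.1%), without the MFN2 cKO PD 52 pair 2 (15.4%), and with the PD 52 libraries only 1 (8.92%), so that fewer genes were called over the whole table too. Gapdhs was called in each of these 4 fits. With a further scaling Gapdh was lost (limma adjusted p = 0.058), with scaling to total reads Gapdh and Pdha1 (limma adjusted p = 0.052 and 0.066), and with no block all but Cyct (5.41% of all genes), Gapdhs having a limma adjusted p of 0.31. The spermatid sum was higher in L/Z and the Sertoli sum higher in P in every pair, and their part in the stage differences was not tested. Of 606 X-linked protein-coding genes the median level was 1.85 to 2.19 FPKM in P, 3.27 and 3.59 FPKM in L/Z at PD 24 and 2.08 and 2.15 FPKM in L/Z at PD 52, while for 13395 autosomal genes it was between 4.73 and 6.12 FPKM. Of the X-linked members, Pdha1 was lower in P in every pair, and Pgk1 was not.

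The third comparison set PD 52 against PD 24, matched on genotype and stage. The testis forms Gapdhs, Pgk2 and Ldhc were higher at PD 52 and the somatic Pdha1 was lower, 4 members of 10 called by limma beside 17.3% of all genes. Gapdhs differed by 2.47 ± 0.38 (limma adjusted p = 0.016), Pgk2 by 0.96 ± 0.15 (limma adjusted p = 0.016), Ldhc by 0.49 ± 0.075 (limma adjusted p = 0.015) and Pdha1 by -0.87 ± 0.16 (limma adjusted p = 0.020). Pgk1 had -0.66 ± 0.19, Gapdh -0.47 ± 0.16, Cycs -0.63 ± 0.30, Ldha 0.26 ± 0.10, Pdha2 0.32 ± 0.13 and Cyct 0.24 ± 0.16, which were not called. Without the MFN2 cKO P pair limma called 0 members and 0 of all genes, with 4 members and 24.8% of all genes at an unadjusted p under 0.05, and without the MFN2 WT L/Z pair it called 1 member, Gapdhs, and 5.09% of all genes. Scaling to total reads moved the median of all genes to -0.13 and left 3 members called, without Ldhc. In every pair 19 of 20 spermatid genes were higher at PD 52, and 8 of 12 Sertoli genes and 9 of 18 leptotene and zygotene genes were lower, and their part in these differences was not tested.

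**Figure D4:**
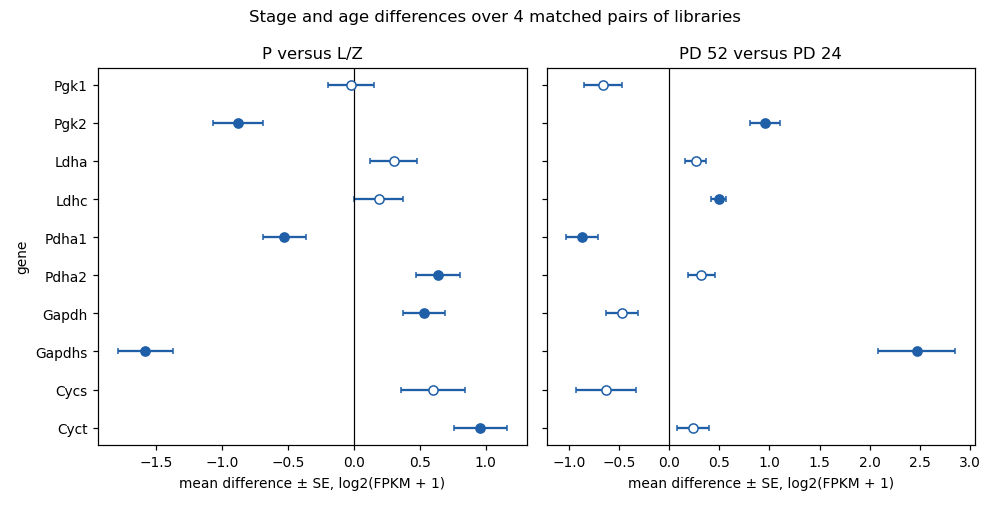
Mean difference in log2(FPKM + 1) with its standard error over 4 matched pairs of libraries, for P minus L/Z (left) and PD 52 minus PD 24 (right), with filled points where limma called the gene. Gapdhs lies at -1.58 on the left and at 2.47 on the right, and 6 and 4 points are filled.

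The ratio of testis to somatic paralog inside a library does not depend on the scaling between libraries. From PD 24 to PD 52 it was higher in 4 of 4 matched pairs for all 5 enzymes. The mean log2 difference was 3.51 ± 1.4 (SD, n = 4) for Gapdhs/Gapdh, 1.74 ± 0.34 for Pdha2/Pdha1, 1.71 ± 0.73 for Pgk2/Pgk1, 0.97 ± 0.57 for Cyct/Cycs and 0.23 ± 0.095 for Ldhc/Ldha. An exact two-sided sign-flip permutation test gave p = 0.125 for each of them, the smallest value that this test allows with 4 pairs, and 0.208 after adjustment over 15 tests, so it could not reach 0.05. An exact permutation of the 8 libraries without matching gave p = 0.0286 (adjusted 0.107) for each ratio but Pdha2/Pdha1, which had 0.0571 (adjusted 0.171).

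Between P and L/Z the ratios moved in different directions. Pdha2/Pdha1 was higher in P in 4 of 4 pairs by 1.49 ± 0.32, whereas Gapdhs/Gapdh and Pgk2/Pgk1 were lower in P in 4 of 4 pairs, by -2.73 ± 0.55 and -0.87 ± 0.42 (exact permutation p = 0.125 and adjusted 0.208 for all 3). Cyct/Cycs differed by 0.29 ± 0.44 (higher in 3 of 4 pairs, exact permutation p = 0.375) and Ldhc/Ldha by -0.11 ± 0.099 (higher in 1 of 4 pairs, exact permutation p = 0.25).

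Between MFN2 cKO and MFN2 WT the Pdha2/Pdha1 ratio was lower in 4 of 4 pairs, by -0.50 ± 0.12, with single pairs between -0.67 and -0.38 (exact permutation p = 0.125, adjusted 0.208). At PD 52 the ratios rest on 42 to 80 reads of Pdha1, and the counting intervals of MFN2 cKO and MFN2 WT overlap in both stages. In P the MFN2 WT libraries had ratios of 48.5 (PD 24) and 131 (PD 52), and those of MFN2 cKO 34.0 and 96.3. In L/Z the MFN2 WT libraries had 15.1 and 55.2, and those of MFN2 cKO 9.51 and 42.5. The other ratios did not keep 1 direction, with Gapdhs/Gapdh at -0.89 ± 1.48, Pgk2/Pgk1 at -0.35 ± 0.60, Ldhc/Ldha at -0.031 ± 0.075 and Cyct/Cycs at 0.098 ± 0.45.

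**Figure D5:**
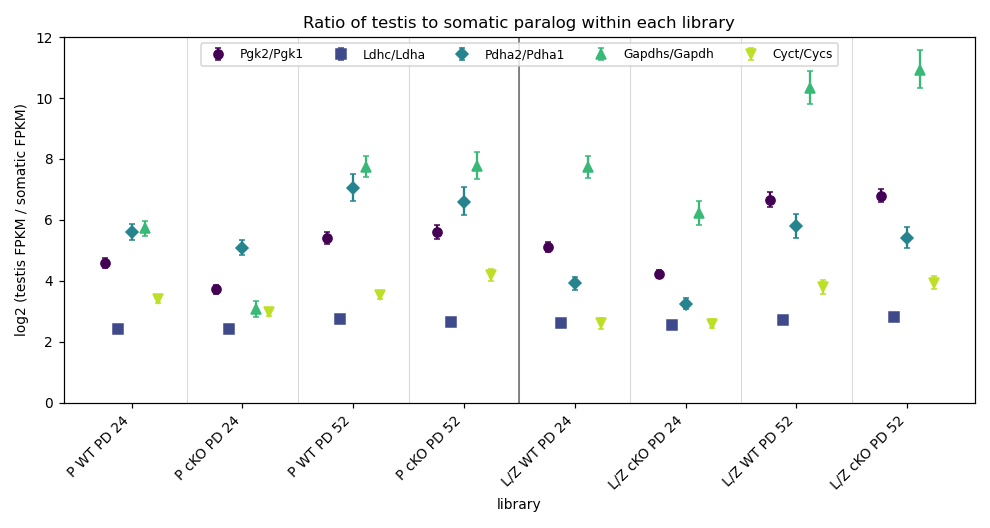
log2 of the testis FPKM over the somatic FPKM for the 5 pairs in each of the 8 libraries, with 95% counting intervals. Ldhc/Ldha stays between 5.28-fold and 6.95-fold, while Gapdhs/Gapdh runs from 8.32-fold to 1937-fold.

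The other genes of the pathways were taken from lists of glycolysis (26 of 29 passed the filter), lactate and pyruvate handling (9 of 10 in the table), the pyruvate dehydrogenase complex (10 of 10) and the handling of cytochrome c (5 of 5), none of which holds a member. Between MFN2 cKO and MFN2 WT, limma called 0 genes of each list, with medians of -0.12, -0.065, -0.052 and -0.12 beside -0.039 over all genes. Between P and L/Z it called 4 glycolysis genes higher and 4 lower in P, or 30.8% of the list beside 28.4% of all genes. Slc2a3, a glucose transporter, was higher by 1.92 ± 0.20, Eno3, an enolase, by 1.38 ± 0.17 and Pfkl, a phosphofructokinase, by 1.06 ± 0.18. The testis aldolases Aldoart1 and Aldoart2 were lower in P, at -1.34 ± 0.17 and -1.43 ± 0.20, and Gpi1 at -1.01 ± 0.22. Of the transporters that carry lactate and pyruvate, Slc16a1 was higher in P by 0.76 ± 0.21 and Slc16a7 lower at -0.92 ± 0.16, and Ldhb was higher by 1.83 ± 0.43. In the pyruvate dehydrogenase complex the subunits Pdhb and Dlat were higher in P, by 0.67 ± 0.15 and 0.63 ± 0.16, and the phosphatase Pdp1 and the kinase Pdk3 lower, at -0.50 ± 0.16 and -0.69 ± 0.17.

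Between PD 52 and PD 24, limma called 7 glycolysis genes higher and 3 lower at PD 52, or 38.5% of the list beside 17.3% of all genes (median 0.32 over the list and 0.0048 over all genes). Aldoart2, Aldoart1 and the hexokinase Hk1 were higher, by 1.93 ± 0.25, 1.86 ± 0.28 and 1.52 ± 0.27. Hk2, Pgam1 and the glucose transporter Slc2a1 were lower, at -1.02 ± 0.20, -0.90 ± 0.17 and -0.76 ± 0.16. Slc16a7 was higher by 1.25 ± 0.27, and Ldhb and the kinase Pdk1 were lower, at -1.54 ± 0.38 and -0.74 ± 0.19. Spermatid genes were higher at PD 52 as well, 19 of 20 in every pair, and their part in these differences was not tested.

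Across the 8 libraries the genes most like each member were found among 6692 protein-coding genes with FPKM above 10 in at least 1 library. For Gapdhs they were Zdhhc25 (Pearson r = 0.999 over 8 libraries that differ in stage, age and genotype) and Tsks (0.999), a substrate of the testis-specific kinases of spermatids. Pgk2 was followed by Spata17 (0.996) and Oser1 (0.993), Ldhc by Mettl22 (0.985) and Nme6 (0.984), Pdha2 by Sharpin (0.996) and 1110051M20Rik (0.980), and Cyct by Ppia (0.985) and Mrpl24 (0.981). Among the somatic forms, Pgk1 was followed by Morf4l2 (0.989) and Ssr3 (0.984), Ldha by Tcea2 (0.992) and Gatad1 (0.987), Pdha1 by Zfp36l2 (0.989) and Ptms (0.988), Gapdh by Fam102a (0.984) and Mark4 (0.976), and Cycs by Micu2 (0.985) and Npepl1 (0.983). Between paralogs themselves the coefficient was 0.90 for Ldhc and Ldha, 0.59 for Cyct and Cycs, -0.55 for Pgk2 and Pgk1, -0.78 for Pdha2 and Pdha1 and -0.87 for Gapdhs and Gapdh. These are descriptions of 8 libraries that share the same groups.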

How the data were processed

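The authors sequenced paired-end reads of 150 bases and deposited FPKM values per gene, made with Novomagic; the submitters' processing notes name CASAVA 1.4, Bowtie 0.12.2 and the builds mm8 and mm9, whereas 98.3% of the coordinates equal those of GENCODE mouse release 21 on GRCm38. FPKM times gene length gave whole reads (tolerance 0.01), from which the exact binomial intervals (95%) were taken; they cover counting error only. limma 3.58.1 was fitted to log2(FPKM + 1) of genes with FPKM above 1 in at least 1 library, with the matched pair as a block and Benjamini-Hochberg adjustment, so fold changes of low genes are understated. With 1 library a group, p-values measure the spread between matched pairs. The ratios were tested by exact sign flips. The members, marker and pathway lists and comparisons were chosen with earlier results of these data known.

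Named were all members, up to 3 rises and 3 falls of each pathway list per comparison among called genes, the 2 genes most like each member, Mfn2 and 5 further pairs. The fits were tested on sets of simulated data, and in most of these sets more than the nominal share of calls was false. The settings varied were the pseudocount (0.1), the FPKM filter (none), other scalings, no block, limma-voom, single ages, 1 added to both values of a ratio, unmatched permutation and each pair left out.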

Additional observations from a re-analysis of the deposited data

Results flagged for a closer look

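For 5 members the difference between MFN2 cKO and MFN2 WT took one direction in both pairs of one stage or age and the opposite direction in both pairs of the other. In P minus L/Z this difference of differences was -0.54 for Ldhc, -0.47 for Ldha, -0.37 for Pdha2 and -0.77 for Cyct, on the log2(FPKM + 1) scale and with an adjusted p of 0.97 by limma for each. Unadjusted, the values by limma were 0.0087, 0.057, 0.20 and 0.074. For Ldhc and Ldha the 4 directions held under the authors' scaling, a further median-of-ratios scaling and scaling to total reads, whereas for Pdha2 and Cyct they did not. For Cycs the difference of differences between PD 52 and PD 24 was -1.09, with an adjusted p of 0.40 by limma. Cycs was higher in MFN2 cKO by 0.31 in P and by 0.57 in L/Z at PD 24, and lower at PD 52, by -1.26 and by -0.036. When the level of Gm10053 was added, the L/Z difference at PD 52 was 0.039, so the opposite direction then did not hold in both pairs.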

How the results depend on the processing

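The quasi-likelihood test on reads was not run, because FPKM values were deposited, and limma-voom on the recovered reads was added in its place after the data were seen, as were scaling to total reads, single ages and the stage difference in the genotype change. No paired analysis by replicate number was possible because the labels carry none. The causes of the changes below were not tested. For P against L/Z, 6 members became 1 with no FPKM filter, with no block and with PD 52 libraries only, and 2 to 5 with each pair left out; all called genes went from 6013 to 3010, 1145, 1759 and at least 2369. For PD 52 against PD 24, 4 members became 0 with no filter and with no block, and 0 to 6 with each pair left out; all called genes went from 3669 to 791, 1 and 0 to 4905. For MFN2 cKO against MFN2 WT, the count of 0 became 1 with PD 24 libraries only; all called genes went from 29 to 7 with a pseudocount of 0.1, 0 with no filter, 3 with no block, 114 with limma-voom, 1807 and 10 with single ages and 0 to 2 with each pair left out. For the change by genotype between ages, 0 members became 1 with limma-voom, and 3 genes became 74, 0 and 624 with a pseudocount of 0.1, no filter and limma-voom.

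No called member changed direction. Of differences that were not called, Pgk2 by genotype (-0.010) turned to 0.024 with a further scaling, 0.0020 with limma-voom, 0.011 with total reads and 0.17 at PD 52 only, and Cyct (-0.026) to 0.0085 with a further scaling and 0.26 at PD 24 only. At PD 24 only, Gapdh turned to 0.098 and Cycs to 0.44. With each pair left out the range was -0.19 to 0.090 for Pgk2, -0.17 to 0.0086 for Ldha, -0.12 to 0.036 for Gapdh, -0.33 to 0.28 for Cycs and -0.24 to 0.21 for Cyct, and for the Cyct/Cycs ratio -0.092 to 0.27. Pgk1 in P against L/Z ran from -0.19 to 0.077 with each pair left out and was 0.14 at PD 52 only. By genotype between ages, a further scaling gave 0.015 for Ldha, 0.055 for Ldhc and 0.028 for Pdha2. The other 14 ratios kept their direction, and unmatched permutation gave no adjusted p under 0.05 either.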

Other observations

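Other X-linked genes with an autosomal copy were listed for comparison, and their ratios of copy to X-linked gene are given without a test. In P against L/Z the ratio was higher in P in 4 of 4 matched pairs for Rpl10l/Rpl10 (mean log2 difference 0.87 ± 0.60, SD, n = 4), Rbmxl2/Rbmx (0.74 ± 0.49) and Cstf2t/Cstf2 (2.05 ± 0.54), and in 3 of 4 pairs for Utp14b/Utp14a (0.97 ± 0.93) and Cetn1/Cetn2 (0.61 ± 0.53). In MFN2 cKO against MFN2 WT it was lower in 4 of 4 pairs for Rpl10l/Rpl10 (-0.67 ± 0.20) and Rbmxl2/Rbmx (-0.49 ± 0.33), higher in 3 of 4 for Cstf2t/Cstf2 (0.28 ± 0.66), and higher in 2 of 4 for Utp14b/Utp14a (-0.29 ± 0.91) and Cetn1/Cetn2 (-0.091 ± 0.86). Of PD 52 against PD 24, the ratio was higher in 4 of 4 pairs for Rpl10l/Rpl10 (1.28 ± 0.63) and Rbmxl2/Rbmx (1.12 ± 0.37) and lower in 4 of 4 pairs for Cstf2t/Cstf2 (-0.86 ± 0.69), while Utp14b/Utp14a (-0.37 ± 0.60) was higher in 1 of 4 and Cetn1/Cetn2 (0.74 ± 0.86) in 3 of 4.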
